A study of Homo sapiens with 23 samples.

Results

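Thalamus organoids (ThOs) grown from H1 human embryonic stem cells in which c-JUN had been knocked out were compared between day 25 and day 30 of culture. All 4 RNA-seq libraries labelled H1cJunKO without the plus were taken, 2 at day 25 and 2 at day 30, out of 12 RNA-seq libraries and 23 samples in the series. H1 is an established embryonic stem cell line. The knockout (KO) was made with CRISPR-Cas9, and the organoids were patterned with BMP7 and the MEK inhibitor PD325901 and then matured in neural differentiation medium. Each library pooled 3 ThOs, per the labels. The study made more than 1 KO clone, and the labels do not tell which clone a library came from, so the 2 libraries of a day are called replicate 1 and replicate 2 with no claim that they are separate clones or cultures. P-values measure the spread between these libraries, which may be technical. Unedited H1 ThOs (WT, 4 libraries) and ThOs of the KO cells carrying a doxycycline-induced c-JUN transgene (OE, 4 libraries), taken at the same days, are given where a KO value needs a reference. The question the comparison addresses is what changes in KO ThOs between the days, and it is set here beside how far the 2 replicates of each day lay apart and in which genes.

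The thalamus forms in the diencephalon, and its glutamatergic neurons carry the transcription factor TCF7L2. Progenitors called radial glia renew under Notch signalling and give rise to neurons. The dorsal midline next to the thalamus forms the roof plate and the choroid plexus, an epithelium that secretes cerebrospinal fluid, exports transthyretin (TTR) and bears cilia, while ependymal cells carry motile cilia built under the transcription factor FOXJ1. Organoids lack blood vessels, and cells short of oxygen raise glucose transport and glycolysis through the transcription factor HIF1A. Because whole ThOs were lysed, fewer cells of a type and less RNA per cell cannot be told apart in any value below.

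Values are normalized whole numbers with no stated unit, between 11 and 9910 in every library, with a median of 106 in every library. Depth is unknown. The tables list 9497 genes, all with a value in every library, so a gene that was off at either day is not among them. In rank order the 2 KO libraries of day 25 had a Spearman's rank correlation of 0.821 across genes and the 2 of day 30 a correlation of 0.769, while the other 4 replicate pairs lay between 0.936 and 0.959. Day 30 replicate 2 stood apart from every other library. The SD of its log2 values around the median of the 12 libraries was 0.781, against 0.572 and 0.596 in the day 25 KO libraries, 0.304 in day 30 replicate 1, and 0.255 to 0.438 in the 8 WT and OE libraries. The called gene and the medians of several gene lists are given with and without it. The counts of separated genes and the sums of squares include it. The targeted gene went against the label at the transcript level. JUN had values of 353 and 196 at day 25 and of 222 and 248 at day 30 in the libraries labelled KO, and all 4 exceeded the WT range of 128 to 162. OE had 224 and 212 at day 25 and 362 and 202 at day 30, which overlapped the KO values. The paper reports that western blot found no c-JUN protein in the KO lines. It also reports no c-JUN mRNA by RT-qPCR in KO cells during neural progenitor and cerebral organoid induction, which are other samples than these. The tables do not show where the edit lies or whether protein was made. Between the days the JUN values of the KO libraries overlapped (274.5 ± 111 at day 25 and 235 ± 18.4 at day 30, SD, n = 2; exact two-sided permutation p = 1, where 0.333 is the smallest this design allows).

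Between the days, 1 gene passed the test in the KO libraries. HELLPAR, a long noncoding RNA on chromosome 12 (102197585 to 102402596, GRCh38), had values of 9910 and 9910 at day 25 and of 1084 and 1743 at day 30. It fell by 2.85 on the log2 scale (SE 0.194, limma adjusted p = 1.32e-05). The figure of 9910 is the highest value any gene takes and is shared by 8 to 10 genes in each library, so the day 25 libraries were tied at the top of the scale, the size of the fall is a lower bound, and these libraries contributed no spread to the SE or the test. The adjusted p rose to 0.231 without day 30 replicate 2, to 0.308 without day 30 replicate 1, to 0.997 and 0.995 without day 25 replicate 1 or 2, and to 1 when the spread was not tied to the mean level. WT had 9910 and 3456 against 2674 and 2094, and OE had 9910 and 3456 against 2094 and 1606, so the day 30 libraries were lower in each genotype. The 1 called gene is 0.0105% of the 9497 tested, and 305 genes (3.21%) had an unadjusted p under 0.05, 154 higher and 151 lower at day 30. In the fits of the same kind on their own libraries, WT had 0 called genes and 1040 (11%) at an unadjusted p under 0.05, and OE had 0 and 748 (7.88%).

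The day means of KO lay further apart than those of WT or OE, and so did its replicates. In the KO libraries 639 genes had day means at least 2-fold apart, 345 higher and 294 lower at day 30, against 162 in WT and 111 in OE. The sum of squares over the 4 KO libraries, averaged over genes, was 0.928, against 0.311 in WT and 0.262 in OE. It divides into 3 parts that each rest on 1 degree of freedom. In KO, 30.8% lay between the days, 31.6% between the day 25 replicates and 37.6% between the day 30 replicates. In WT, 44.3% lay between the days, and in OE 40.1%. The day difference was larger than both replicate differences for 1723 genes (18.1%) in KO, 2787 (29.3%) in WT and 2545 (26.8%) in OE.

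**Figure D1:**
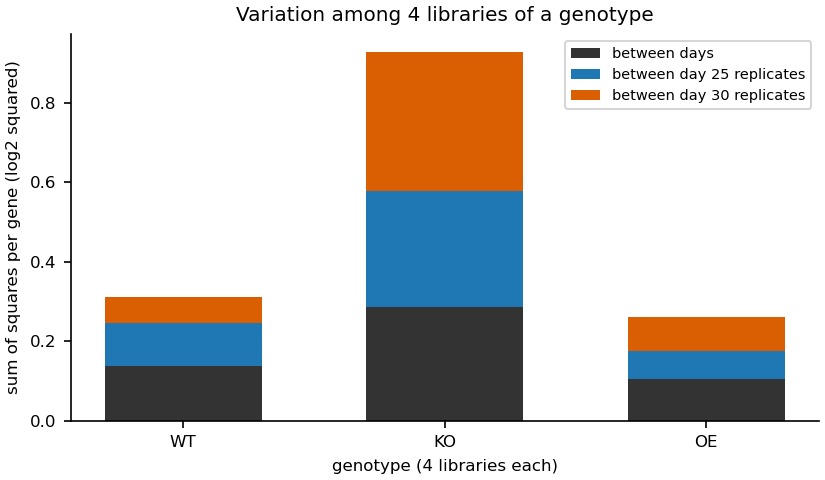
Bars give the sum of squares per gene of the log2 values over the 4 libraries of each genotype, divided into the part between days and the parts between the 2 replicates of day 25 and of day 30. The KO bar reaches 0.928, with 30.8% of it between the days, while the WT and OE bars reach 0.311 and 0.262.

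Genes were next ordered by separation, the distance between the nearest values of the 2 days. Both day 30 libraries lay above both day 25 libraries for 1480 genes (15.6%) and below them for 1299 (13.7%). The distance reached 2-fold for 23 genes in each direction (0.242% each). Values for the 12 leading genes per direction are a description, since the ordering used the same values. None but HELLPAR passed the test.

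The leading genes on the higher side had various roles. PDK1, the kinase that holds pyruvate back from the mitochondria, had 28 and 16 at day 25 and 114 and 74 at day 30 (log2 difference 2.06, SE 0.613, limma adjusted p = 1). P4HA2, a collagen prolyl hydroxylase subunit, had 54 and 30 against 120 and 118. Both rise in oxygen-poor cells, and in WT both were also higher at day 30, with 52 and 38 against 92 and 124 for PDK1 and 64 and 82 against 108 and 102 for P4HA2. SEC11C, a subunit of the signal peptidase that trims secreted proteins, had 11 and 11 against 57 and 32, the widest separation. ATL3, which shapes the endoplasmic reticulum, had 21 and 21 against 47 and 99. The autophagosome protein gene MAP1LC3A had 18 and 16 against 66 and 47. RND1, which loosens the actin cytoskeleton, had 16 and 22 against 56 and 60, and DCTN6, a dynactin subunit, had 20 and 17 against 48 and 80. EMILIN2, an extracellular matrix glycoprotein, had 31 and 14 against 78 and 123, and the tetraspan protein gene LHFPL6 had 56 and 14 against 147 and 139. EEFSEC, which delivers selenocysteine to the ribosome, had 14 and 22 against 56 and 71. The remaining genes were the transcriptional repressor NKRF (21 and 21 against 50 and 98) and the histone demethylase KDM6A (32 and 32 against 70 and 81). The day 25 values of these 12 genes sat low on the scale, at 56 or less. Both SEC11C values of 11 were the lowest any gene takes, so they were tied at the bottom of the scale. In WT both day 30 values lay above both day 25 values for 5 of the 12 (SEC11C, PDK1, DCTN6, ATL3 and P4HA2), the days overlapped for 6, and KDM6A was lower at day 30. In OE this held for 1 (EEFSEC), the days overlapped for 10, and KDM6A was again lower. Of all 9497 genes, 2054 separated higher and 1873 lower in WT, and 1736 higher and 1846 lower in OE.

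On the lower side the 4 genes with the highest day 25 values were also lower at day 30 in the other genotypes. LINC00504, a long noncoding RNA, had 648 and 489 at day 25 and 180 and 153 at day 30 (log2 difference -1.76, SE 0.36, limma adjusted p = 0.839). It had 1256 and 430 against 386 and 323 in WT, and 804 and 488 against 348 and 300 in OE. C12orf50 had 303 and 202 against 86 and 38 in KO, 496 and 154 against 143 and 134 in WT, and 230 and 152 against 98 and 98 in OE. TTN, which encodes the giant sarcomere protein titin, had 177 and 142 against 55 and 62 in KO, 381 and 136 against 92 and 100 in WT, and 186 and 113 against 98 and 72 in OE. With HELLPAR these genes had all day 30 values below all day 25 values in KO, WT and OE alike. The group of nuclear long noncoding RNAs as a whole (8 genes) had a median change of -0.30 in KO, -0.17 in WT and -0.38 in OE. In KO only 1 of the 8 separated lower and 2 separated higher, and the median was -0.08 without day 30 replicate 2 and -0.11 without day 25 replicate 1.

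The other 8 genes on the lower side varied in WT and OE. WNT9A, a secreted Wnt ligand, had 114 and 126 at day 25 and 42 and 43 at day 30, and its WT values of 89 and 30 spanned the WT day 30 values of 68 and 80. CCDC74B had 146 and 158 against 47 and 42. CX3CL1, the chemokine fractalkine, had 58 and 75 against 26 and 22, and HCN3, a pacemaker channel subunit, had 80 and 82 against 36 and 26. PELI2, a ubiquitin ligase of innate immune signalling, had 142 and 100 against 38 and 18. IFTAP had 66 and 99 against 28 and 25, ADAMTSL3 had 58 and 68 against 16 and 22, and the zinc finger gene ZNF497 had 76 and 84 against 24 and 22. The days overlapped in both WT and OE for WNT9A, CCDC74B, HCN3 and IFTAP. They did not overlap for CX3CL1 in either, for ZNF497 and PELI2 in WT, and for ADAMTSL3 in OE, each with day 30 lower. Over all 12 genes of the lower side, 7 separated lower in WT and 6 in OE. Of all 9497 genes, 1873 did so in WT and 1846 in OE. The time change of KO was tested against that of WT and of OE, and 0 genes passed in either test by limma (269 genes, 2.83%, and 243 genes, 2.56%, at an unadjusted p under 0.05).

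**Figure D2:**
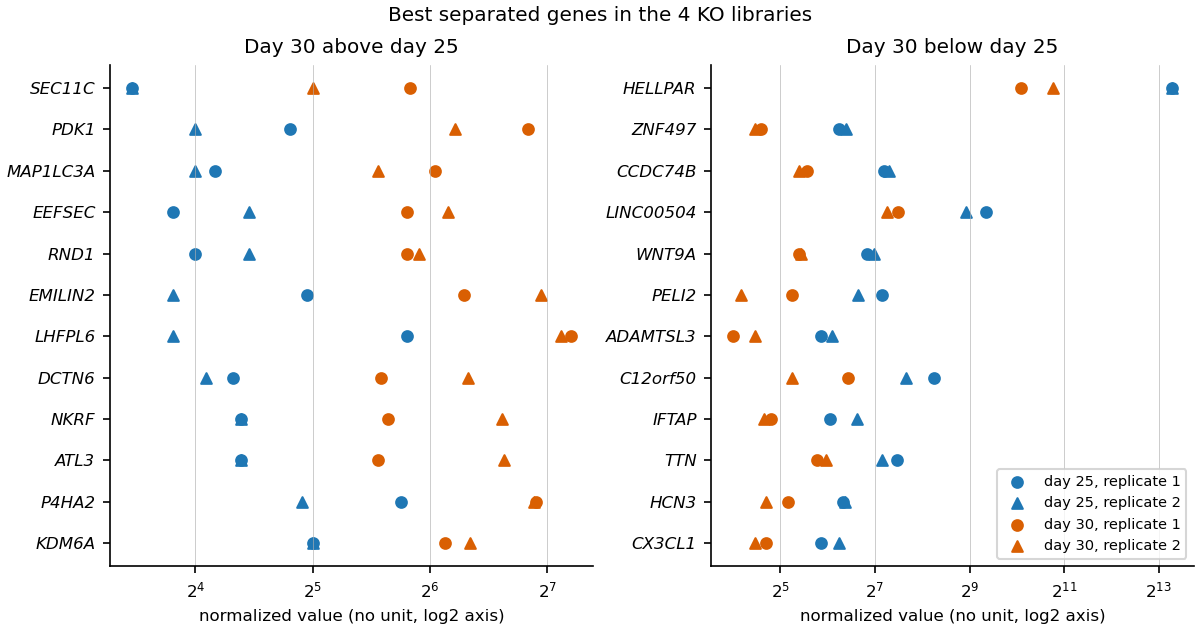
Each row is 1 of the 12 best separated genes per direction, with its normalized value (no unit, log2 axis) in the 4 KO libraries; colour gives the day and marker shape the replicate. Day 25 and day 30 points do not overlap in any row, which the choice of genes fixes, and HELLPAR sits at 9910 in both day 25 libraries.

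Genes of hypoxia and glycolysis leaned towards day 30. Of 39 such genes in the tables, 15 (38.5%) had both day 30 values above both day 25 values, against 15.6% of all genes, and 0 had both below. Their median change was 0.42 on the log2 scale, against 0.02 for all genes. At an unadjusted p under 0.05, 10 of them were higher and 0 lower, where the share over all genes was 1.62% higher and 1.59% lower. None passed after adjustment. HK2, which traps glucose in the cell, had 130 and 72 at day 25 and 547 and 204 at day 30. SLC2A1, the main glucose transporter of the blood-brain barrier, had 158 and 112 against 804 and 168. BNIP3, a mitophagy receptor, had 102 and 82 against 320 and 132, and P4HA1, the partner of P4HA2, had 120 and 90 against 380 and 146. PFKFB4, a regulator of glycolytic flux, had 30 and 22 against 90 and 61, and the MAX partner gene MXI1 had 65 and 64 against 130 and 145. In HK2, SLC2A1, BNIP3 and P4HA1, day 30 replicate 1 was the highest of the 4 values by more than the distance between the day 25 replicates. HIF1A itself had 308 and 510 against 553 and 344, and GAPDH, a glycolytic enzyme, had 2092 and 2396 against 2396 and 2400.

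The size of this difference depended on which day 30 library was used. Without replicate 2 the median change was 0.98, and without replicate 1 it was 0.08. Summed over the 39 genes, the share of the library was 0.785% and 0.946% at day 25 and 1.26% and 0.855% at day 30, so the days overlapped. In WT, the sums were 0.783% and 0.898% against 1.11% and 1.14%, with no overlap and a median change of 0.56 over the genes. In OE the median change was 0.18.

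Genes of motile cilia leaned the other way, through 1 library. Of 17 listed genes, 7 (41.2%) had both day 30 values below both day 25 values, against 13.7% of all genes, and 0 had both above. The median change was -0.45 in KO, 0.23 in WT and 0.86 in OE. FOXJ1 had 388 and 1159 at day 25 and 318 and 346 at day 30. DNAH9, a dynein heavy chain of the ciliary arms, had 145 and 435 against 82 and 86, and CFAP70, an axonemal protein, had 78 and 209 against 37 and 26. DNAH9, FOXJ1 and CFAP70 had unadjusted p under 0.05, and none passed after adjustment. Without day 25 replicate 2 the median change of the list was 0.06, and without day 25 replicate 1 it was -1.20. Choroid plexus genes had the same dependence, with a median of -0.15 over 16 genes, 0.47 without day 25 replicate 2 and -1.22 without day 25 replicate 1.

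Day 25 replicate 2 differed from replicate 1 by at least 2-fold in 1651 genes, 864 higher (9.1%) and 787 lower (8.29%). Cilia and choroid plexus genes made up its best marked group. Of the 17 motile cilia genes, 14 were at least 2-fold higher in replicate 2 (82.4%), 0 were lower, and the median difference was 1.58. SPAG6, a protein of the central pair of the axoneme, had 32 in replicate 1 and 207 in replicate 2. ZMYND10, needed to assemble dynein arms, had 186 and 700, and the ciliary gene PIFO had 258 and 926. RFX3, a transcription factor of ciliary genes, had 853 and 1082. Of 16 choroid plexus genes, 10 were at least 2-fold higher (62.5%) and 1 lower, with a median of 1.49. TTR had 541 and 3453, FOLR1, a folate carrier, had 40 and 346, CLIC6 had 50 and 364, and HTR2C, a serotonin receptor, had 56 and 300. OTX2, which specifies the choroid plexus and the diencephalon, had 450 and 523. Both lists also differed between replicates in other genotypes. In OE at day 30, replicate 2 was at least 2-fold lower in 14 of the 17 motile cilia genes (median -1.34) and 6 of the 16 choroid plexus genes. In that pair 3.23% of all genes were 2-fold apart. In WT at day 30, 4 cilia and 5 choroid plexus genes were lower. In OE at day 25, 3 cilia genes were higher and 5 choroid plexus genes lower. Of all genes, 1.75% were 2-fold apart in the WT pair of day 30 and 2.15% in the OE pair of day 25.

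**Figure D3:**
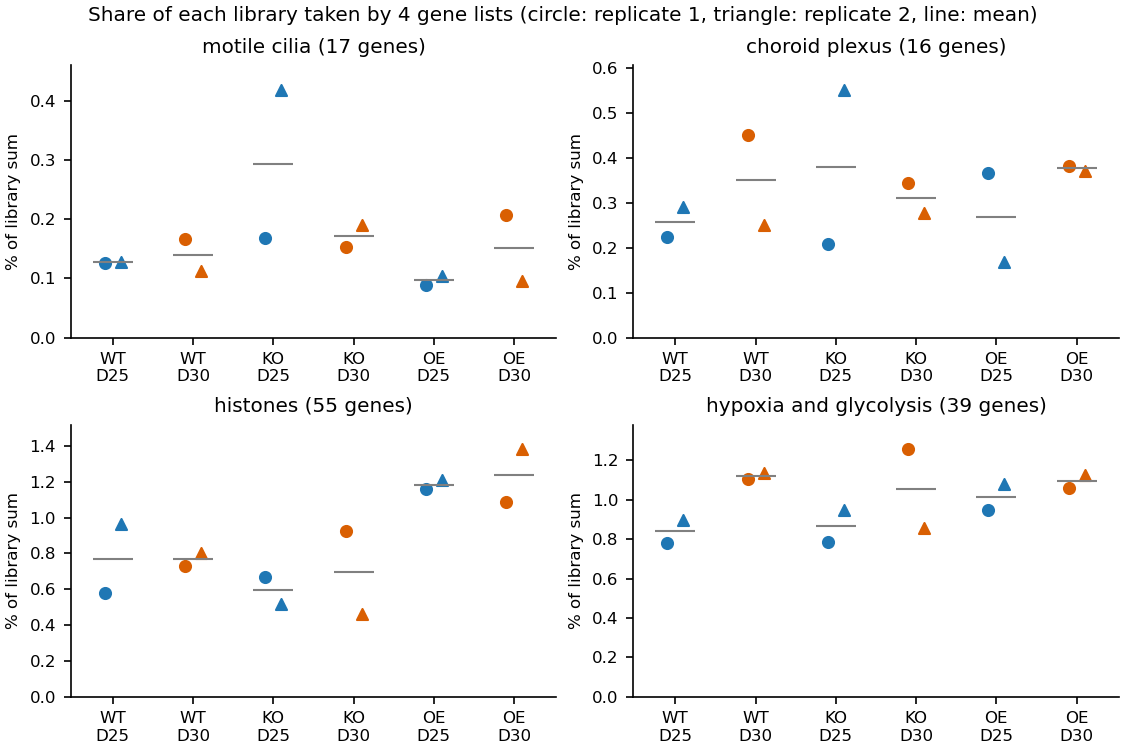
Each panel gives the summed value of a gene list as a percentage of the library sum, by genotype and day; circles are replicate 1, triangles replicate 2, and lines the mean of the 2. Day 25 KO replicate 2 is the highest of 12 libraries for motile cilia (0.419%) and for choroid plexus (0.552%), and day 30 KO replicate 2 is the lowest for histones (0.462%).

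The 5 genes with the largest day 25 differences upwards in KO included members of the same programmes. ROPN1L, a protein of the radial spoke in cilia and sperm tails, had 12 and 173, and ENO4, an enolase of the sperm tail, had 12 and 140. SERPINF1, which encodes the secreted pigment epithelium-derived factor, had 95 and 1012. The sugar transporter gene SLC2A12 had 12 and 170, and SH3KBP1 had 11 and 133. At day 30 these 5 genes had values between 20 and 238, with the 2 replicates closer together than at day 25. Downwards, GALNTL6 had 166 and 14, GLDC, the glycine cleavage enzyme of radial glia, had 110 and 11, LRCH1 had 105 and 11, SFXN5 had 124 and 14, and PDE2A had 117 and 14. Apart from SERPINF1, the lower day 25 value of each gene in both directions was at or near 11, the lowest value any gene takes.

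Neuronal and progenitor genes were lower in the same replicate. Over 39 neuronal genes the median was -0.56, with 7 at least 2-fold lower (17.9%, against 8.29% of all genes) and 0 higher. DCX, the microtubule protein of migrating neurons, had 2394 and 895. CNTN2, an axonal adhesion protein, had 877 and 249, and DCC, the netrin receptor, had 637 and 210. TUBB3 had 1606 and 1014. NES, the intermediate filament of progenitors, had 1159 and 340 at day 25 and 1259 and 1130 at day 30, with day 30 replicates close together. Over 28 radial glia genes replicate 2 was lower at both days, with a median of -0.38, 8 genes at least 2-fold lower and 2 higher at day 25, and a median of -0.58, 9 lower and 0 higher at day 30. At day 30 the neuronal list had a median replicate difference of -0.06, again with 7 genes at least 2-fold lower (17.9%, against 11.8% of all genes) and 0 higher.

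At day 30, replicate 2 differed from replicate 1 by at least 2-fold in 2045 genes, 926 higher (9.75%) and 1119 lower (11.8%). The 4 replicate pairs of WT and OE had 166 to 423 such genes. The leading groups were others than at day 25. Histone genes were lower in replicate 2, with 36 of 55 at least 2-fold lower (65.5%), 1 higher, and a median of -1.18. Most of these are replicative histones, whose transcripts are made in S phase and end in a stem-loop in place of a poly(A) tail. The libraries were made from total RNA after ribosomal RNA digestion, and so capture such transcripts. H4C11 had 618 in replicate 1 and 74 in replicate 2, H2AC17 had 313 and 38, H2BC17 had 278 and 38, and H2BC4 had 416 and 74. The day 25 replicates lay closer for these genes, with 120 and 50 for H4C11, 84 and 101 for H2AC17, 186 and 132 for H2BC17 and 202 and 96 for H2BC4. Among histones made throughout the cell cycle, H3-3A had 946 and 790 and H3-3B had 854 and 678. Histone copies are near identical in sequence, reads may be divided among them, and H3C14 and H3C15 had the same 4 values, so single histone genes are uncertain. Over the list, the day change was 0.87 without day 30 replicate 2 and -0.43 without replicate 1, with 0.23 for all 4 libraries. Histone genes also differed between the WT replicates of day 25, with 27 of 55 at least 2-fold higher in replicate 2, 0 lower and a median of 0.91. In that WT pair 4.45% of all genes were 2-fold apart. The remaining WT and OE pairs had 0 or 1 histone gene 2-fold apart.

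The histone genes H2AC17 and H2BC17 are divergent neighbours on chromosome 6 whose promoters overlap, and SPAG6 had the largest day 25 difference among the 17 motile cilia genes of the list. H4C11, the histone gene with the largest day 30 difference, and the ciliary gene ZMYND10 held no match and are not shown. The promoters of the other 3 genes are shown as examples that hold a match, from lists whose members moved together between replicates. They are from RefSeq (GRCh38.p14, 250 bases before to 50 after the start), each written 5′ to 3′ on its gene's strand. Capitals mark CCAAT or its reverse complement ATTGG in the histone promoters and GTTGCC or its reverse complement GGCAAC in the ciliary promoter, the first a box common in histone promoters and the second the core of the site read by RFX factors.
H2AC17 promoter, chr6:27893136-27893435, minus strand: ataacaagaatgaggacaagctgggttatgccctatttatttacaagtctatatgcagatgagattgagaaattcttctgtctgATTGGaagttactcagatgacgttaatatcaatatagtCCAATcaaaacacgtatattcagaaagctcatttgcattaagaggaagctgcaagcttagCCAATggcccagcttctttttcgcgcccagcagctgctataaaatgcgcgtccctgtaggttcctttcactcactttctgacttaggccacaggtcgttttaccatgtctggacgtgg
H2BC17 promoter, chr6:27893175-27893474, plus strand: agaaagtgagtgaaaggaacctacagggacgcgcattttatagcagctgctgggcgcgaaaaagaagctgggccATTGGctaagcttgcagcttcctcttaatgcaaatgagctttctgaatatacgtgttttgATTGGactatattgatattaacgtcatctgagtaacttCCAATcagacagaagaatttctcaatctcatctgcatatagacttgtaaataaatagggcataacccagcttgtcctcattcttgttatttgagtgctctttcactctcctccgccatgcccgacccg
SPAG6 promoter, chr10:22345246-22345545, plus strand: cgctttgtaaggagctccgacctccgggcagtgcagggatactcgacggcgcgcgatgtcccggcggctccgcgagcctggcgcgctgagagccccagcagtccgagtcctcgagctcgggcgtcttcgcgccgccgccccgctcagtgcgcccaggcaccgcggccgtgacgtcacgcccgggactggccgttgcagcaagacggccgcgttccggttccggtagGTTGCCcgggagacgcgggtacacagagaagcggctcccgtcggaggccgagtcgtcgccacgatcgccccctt

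CCAAT was found on either strand in 42 of the 50 histone promoters in the reference (84%), against 38% of the promoters of all genes in the tables and 35.7% of all 27305 promoters. GTTGCC was found in 5 of 10 ciliary promoters (50%), against 12.8% and 12.2%. For hypoxia and glycolysis genes, ACGTG or GCGTG, the core of the HIF1A site, was found in 24 of 34 promoters (70.6%), against 64.3% and 48.4%, which was near the share of the tabled genes. PDK1 and P4HA2 held no match in the window used. These matches are descriptions of letters and do not mark a bound site.

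Genes of hypoxia and glycolysis were also lower in day 30 replicate 2, with 16 of 39 genes at least 2-fold lower (41%), 0 higher and a median of -0.87. LDHA, which turns pyruvate into lactate, had 896 and 120, and VEGFA, the vascular growth factor, had 385 and 60. SLC2A3 had 134 and 19, SLC2A1 had 804 and 168, and DDIT4, an inhibitor of growth signalling, had 462 and 114. PKM had 2094 and 2092 and ALDOA 1329 and 1332, so not all glycolytic enzymes differed. Other lists are to be read against the 11.8% of all genes that were lower and the 9.75% that were higher. The unfolded protein response list had 10 of 31 genes at least 2-fold lower (32.3%) and 0 higher, with HERPUD1 at 127 and 25 and ASNS at 92 and 20. Ribosomal protein genes had 17 of 79 at least 2-fold lower (21.5%), among them RPL36A (282 and 48) and RPS27 (281 and 62), and RPS3A was higher (2094 and 3452). Notch pathway genes had 8 of 23 at least 2-fold lower (34.8%) and 0 higher, with JAG1, a ligand, at 178 and 32 and HES4, a target, at 78 and 14. Mitotic genes had 7 of 35 at least 2-fold lower (20%), with the proliferation marker MKI67 at 353 and 109, while the 34 DNA replication genes had 4 lower (11.8%) and 3 higher (8.82%), near the shares of all genes, and a median of -0.13. Cilia and choroid plexus lists had medians of 0.15 and 0.06, but TTR, at 2672 and 638, differed in the direction opposite to day 25.

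The 5 largest day 30 differences downwards were in PCGF2, a Polycomb subunit (173 and 12), the kinase gene YES1 (212 and 18), the dipeptidase gene CNDP2 (198 and 18), ATP1B2, a subunit of the sodium pump (252 and 24), and TFAP2B (208 and 20). For PCGF2, YES1 and CNDP2 the other 11 libraries lay between 102 and 242, so replicate 2 was the library out of range. For TFAP2B the libraries outside this pair lay between 42 and 104, so both replicates were out of range. For ATP1B2 replicate 1 was above every other library and replicate 2 below every other, and the day 25 KO libraries had 34 and 54. Upwards, ANO2, a chloride channel, had 25 and 231, TMEM182 had 11 and 112, CCDC24 had 27 and 182, FYB2 had 14 and 90, and ZNF8-DT had 22 and 136. The 11 of TMEM182 was the lowest value any gene takes.

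**Figure D4:**
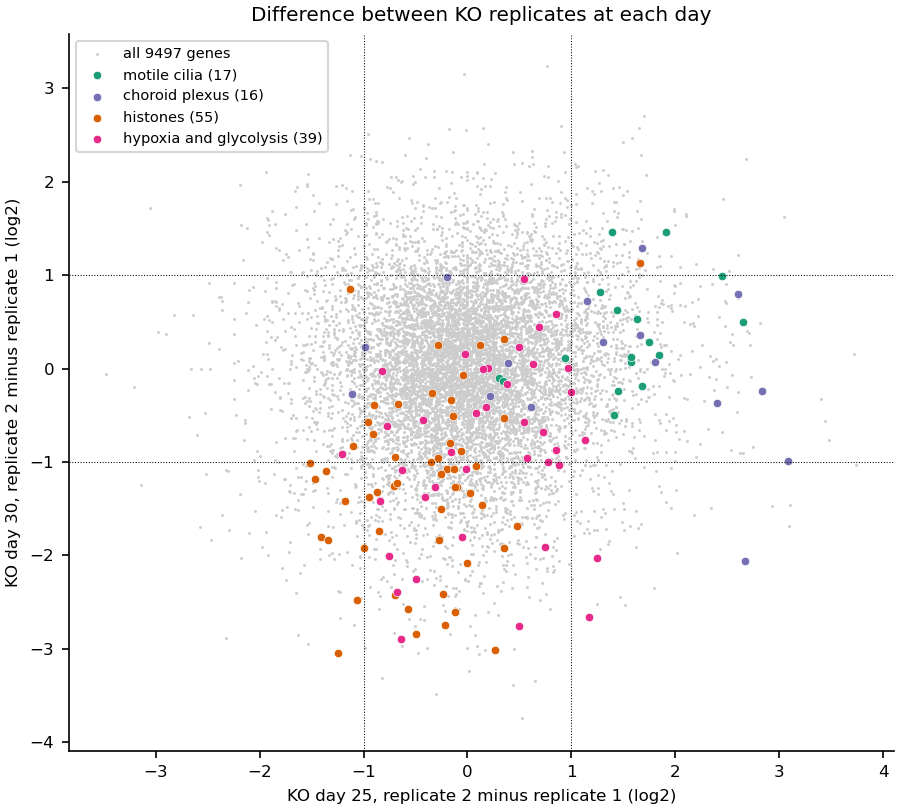
Each point is a gene, placed by the log2 difference of replicate 2 minus replicate 1 at day 25 (horizontal axis) and at day 30 (vertical axis) in the KO libraries, with 4 gene lists coloured and dotted lines at 2-fold. Motile cilia and choroid plexus genes lie to the right (medians 1.58 and 1.49 at day 25), histones and hypoxia and glycolysis genes lie low (medians -1.18 and -0.87 at day 30).

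Replicate differences at the 2 days were for the most part in different genes. Across 9497 genes the differences had a Pearson's r of 0.06 between the days, a description over genes that share libraries. Both days reached 2-fold in 456 genes, 27.6% of the day 25 set and 22.3% of the day 30 set, where 21.5% of all genes reached 2-fold at day 30. Of these 456, 272 differed in the same direction (146 higher and 126 lower in replicate 2) and 184 in opposite directions.

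Among genes lower in replicate 2 at both days were regulators of progenitors and matrix. NOTCH1, the receptor that keeps radial glia dividing, had 285 and 84 at day 25 and 408 and 84 at day 30. VCAN, a large matrix proteoglycan, had 628 and 182 and then 823 and 187. In the 8 WT and OE libraries NOTCH1 lay between 256 and 586 and VCAN between 678 and 1130, so the replicate 2 libraries lay below the other genotypes for both genes, and replicate 1 of day 25 did so for VCAN. ZEB2, a transcription factor of neural crest and interneurons, had 158 and 34 and then 190 and 46, against 98 to 256 in WT and OE. PCDH18, a protocadherin, had 200 and 40 and then 235 and 70. ACVR1, a BMP receptor, had 86 and 22 and then 51 and 12, and SMOC1, a secreted BMP antagonist, had 82 and 20 and then 78 and 20. RTL8C had 124 and 24 and then 154 and 20. CBS, the first enzyme of transsulfuration, had 93 and 16 and then 67 and 18, C1orf35 had 55 and 12 and then 43 and 12, and SLC37A1 had 110 and 28 and then 63 and 18.

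Among genes higher in replicate 2 at both days, MIPEP, a mitochondrial peptidase, had 11 and 76 at day 25 and 22 and 108 at day 30, against 12 to 38 in WT and OE. CCDC24 had 30 and 100 and then 27 and 182, against 16 to 43. N4BP3 had 26 and 84 and then 48 and 290, and SETD6, a lysine methyltransferase, had 15 and 50 and then 36 and 180. GRIK3, a kainate receptor subunit, had 21 and 86 and then 30 and 99, and RBFOX1, a neuronal splicing factor, had 22 and 90 and then 22 and 74. CDH4, a cadherin of axon tracts, had 11 and 65 and then 30 and 108, while its WT and OE values ran from 58 to 162. FRMD8, RPP30 and DHX37 complete the 10 genes. The day 25 values of 11 for MIPEP and CDH4 were the lowest any gene takes. For 7 of the 10 (MIPEP, FRMD8, RBFOX1, CCDC24, GRIK3, N4BP3 and DHX37) both replicate 2 libraries lay above every WT and OE library. Genes of both directions were chosen by the replicate difference, which favours replicate 2 values outside the other genotypes. The share over all genes was not counted, so this is a description of the chosen genes.

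Thalamic identity genes were lower in replicate 2 at both days, and between the days none of them separated. TCF7L2 had 256 and 121 at day 25 and 341 and 109 at day 30. LHX9, a thalamic LIM homeobox gene, had 352 and 210 and then 297 and 118, PROX1 had 61 and 16 and then 58 and 26, and IRX3 had 76 and 14 and then 67 and 22. The median replicate difference over the 9 listed genes (of 23 on the list) was -0.74 at day 25 and -1.13 at day 30, with 4 (44.4%) and 5 (55.6%) genes at least 2-fold lower, against 8.29% and 11.8% of all genes, and 0 and 1 genes at least 2-fold higher. The median change between the days was 0.09 (0.33 without day 30 replicate 2, -0.27 without day 30 replicate 1, 0.28 without day 25 replicate 1 and -0.41 without day 25 replicate 2), and 0 of the 9 had days that did not overlap. SLC17A6, the vesicular transporter of thalamic glutamatergic neurons, had 136 and 96 and then 108 and 96. Of 13 telencephalic markers 0 were in the tables, and of 13 hypothalamic and retinal markers 3 were, with OTX2 at 450 and 523 and then 720 and 586, LHX5 at 54 and 94 and then 54 and 90, and CRX at 66 and 15 and then 46 and 85. Of 13 mid- and hindbrain markers 2 were listed, LMX1A, which also marks the roof plate, at 275 and 402 and then 285 and 538, and TFAP2B. The 9 thalamic genes also differed between OE replicates, in the other direction. At day 25 the OE median was 1.41, with 5 genes at least 2-fold higher in replicate 2 and 1 lower, and TCF7L2 had 123 and 465. At day 30 the OE median was 0.30, with 3 higher and 0 lower. Of all genes, 2.15% were 2-fold apart between the OE replicates of day 25 and 3.23% between those of day 30. The WT medians were -0.04 at day 25 and 0.20 at day 30.

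Dorsal midline genes took different courses in the KO libraries. LMX1B, a roof plate transcription factor, had 525 and 388 at day 25 and 375 and 368 at day 30. GDF7, a roof plate BMP ligand, had 1215 and 789 against 306 and 390. WNT8B, a Wnt ligand of the cortical hem and thalamic border, had 46 and 51 against 27 and 20, and RSPO2, which amplifies Wnt signals, had 26 and 28 against 112 and 54. Of the 18 listed genes 2 separated higher (11.1%, against 15.6% of all genes) and 4 lower (22.2%, against 13.7%), and the median change was -0.01. Without day 30 replicate 2 the median was -0.24, and without day 30 replicate 1 it was -0.09. WNT2B, with 1608 and 553 against 592 and 1466, had its replicates in opposite order at the 2 days. MSX1 had 484 and 732 against 310 and 528, CYP1B1 had 1466 and 1738 against 787 and 2394, and COL2A1, a fibrillar collagen, had 564 and 650 against 285 and 331 (limma adjusted p = 1 for COL2A1). None of these passed the test.

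Neuronal maturation left few clear differences between the days. Among 39 neuronal genes 5 separated higher (12.8%) and 4 lower (10.3%), no more than the 15.6% and 13.7% of all genes. STMN2, a microtubule regulator of growing axons, had 898 and 924 against 1468 and 1408, and GPM6A, a neuronal membrane glycoprotein, had 1084 and 734 against 1882 and 1606. L1CAM, an axonal adhesion molecule, had 462 and 260 against 228 and 220, and RTN1 had 542 and 448 against 351 and 313. TUBB3 had 1606 and 1014 against 1604 and 1608. SEMA6A, a guidance ligand, had 209 and 180 against 314 and 318. Synaptic genes had a median change of -0.16 over 33 genes, against 0.27 in WT and -0.05 in OE. The KO median was 0.08 without day 25 replicate 1, 0.06 without day 30 replicate 1, -0.37 without day 25 replicate 2 and -0.21 without day 30 replicate 2, so its sign depended on 1 library. GRIA2, an AMPA receptor subunit, had 240 and 152 against 104 and 128. Of the remaining genes followed for the study, DPY19L1 had 412 and 366 against 619 and 524, JUND had 222 and 227 against 284 and 295, ATF3 had 72 and 56 against 68 and 26, CLDN1 had 460 and 232 against 372 and 438, PLAGL1 had 85 and 26 against 152 and 60, and MXRA5 had 46 and 40 against 62 and 52.

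**Figure D5:**
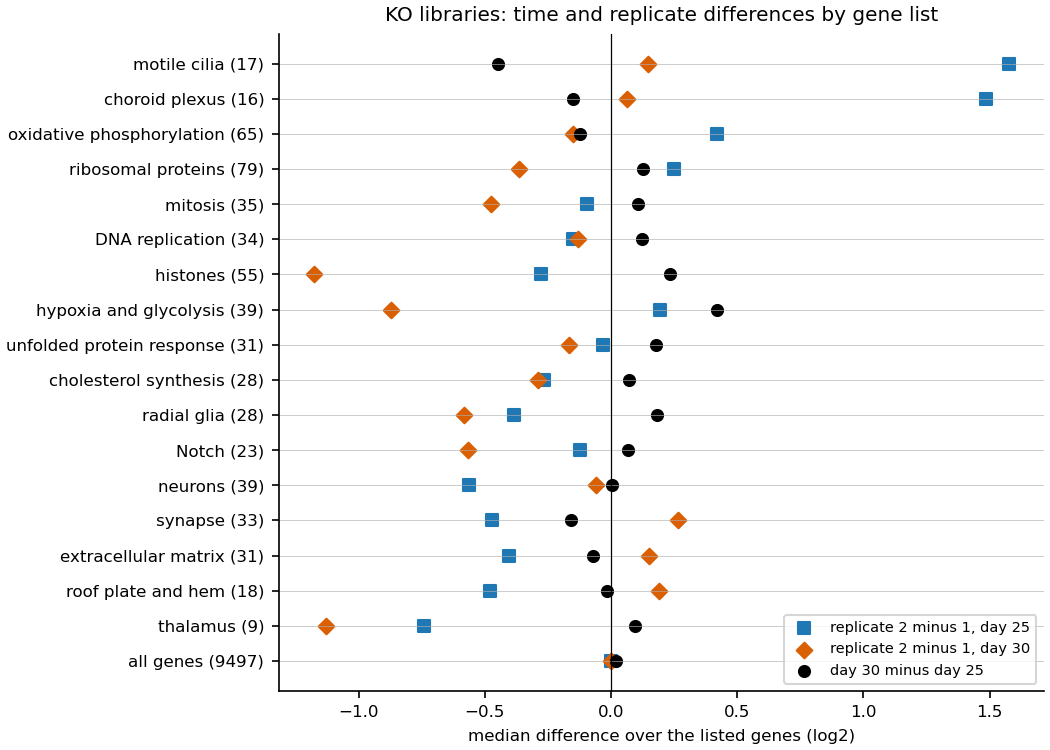
Each row is a gene list with its number of genes; symbols give the median log2 difference over the list between days (black circle), between the day 25 replicates (square) and between the day 30 replicates (diamond) in the KO libraries. In every row but the unfolded protein response and all genes, at least 1 replicate difference lies further from 0 than the difference between days.

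Few of the markers of pluripotent, endoderm, muscle, blood, neural crest and mesenchymal cells were listed. Only genes with a value in every library are listed, and of the thalamic markers 9 of 23 were. A missing marker therefore does not show that a cell type was absent. Of 13 pluripotency markers 3 were in the tables, LIN28B, DNMT3B and TERF1, at values of no more than 108 in the KO libraries. Of 18 endoderm, muscle and blood markers 3 were in the tables, KRT8, KRT18 and PTPRC. PTPRC, the leukocyte antigen CD45, had 80 and 206 at day 25 and 50 and 214 at day 30. Of 13 neural crest markers 4 were listed, with PAX3 at 401 and 235 and then 626 and 417. Mesenchymal markers (9 of 25 listed) had COL1A2 at 352 and 734 and then 162 and 318. The part of such cells in the replicate differences was not tested.

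Chromosome position gave 1 further difference. The median of replicate 2 minus replicate 1 at day 30 was -0.32 over the 255 genes of chromosome 20, and lay between -0.20 (chromosome X, 309 genes) and 0.15 (chromosome 5, 457 genes) for the others. Against the median of the 12 libraries, the chromosome 20 genes of day 30 replicate 2 had a median of -0.24, where the other 11 libraries lay between -0.08 and 0.04. At day 25 the chromosome 20 median of the replicate difference was -0.08. The cause was not tested.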

How the data were processed

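RNA-seq tables of 12 libraries (3 pooled ThOs each) were used; ATAC-seq and CUT&Tag samples were not analysed here. The authors deposited 1 value per gene, treated as a score: a normalized whole number whose method is not given in the sources used here. The labels name bcl2fastq, RSEM, Bowtie2 and hg19, with no role. Positions of 9386 matched symbols overlapped RefSeq GRCh38.p14. Such values share 1 distribution across libraries, so the median of all genes cannot move, and no count test or counting interval was possible.

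Values were tested as log2(value + 1) with limma 3.58.1 (R 4.3.3), two-sided, with an intensity trend and Benjamini-Hochberg adjustment. A fold change on this scale understates the change of low genes. Each genotype was fitted on its own 4 libraries (2 residual degrees of freedom; 11.2 prior for KO), and interactions on 8 libraries with weights per genotype. A minimum value of 1 in 2 or more libraries excluded no gene. Calls needed an adjusted p under 0.05 and 2-fold, interactions the adjusted p alone. Named were 12 genes per direction by separation, every called gene, 10 per direction by the replicate difference shared by both days, 5 per direction and day by replicate difference, the study's 19 genes, and members of gene lists. Members and lists were chosen with earlier results of these data known. Lists are described by counts and medians. The KO fit was tried on simulated data in which 200 of 9497 genes were given a known difference between the days. It called 0.3% of them at a log2 difference of 1, 24.8% at 2 and 81.6% at 3. Most smaller differences were thus missed, and a gene that did not pass may still differ between the days. Python 3.11.15 was used for summaries.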

Additional observations from a re-analysis of the deposited data

How the results depend on the processing

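The count of 1 gene called between the days in KO was kept under pseudocounts of 0.1 and 5, a mean of at least 50, no filter, median centring, quantile normalization and no fold limit, each time HELLPAR. It was 0 with all 12 libraries in 1 spread (1258 genes at an unadjusted p under 0.05), 0 with weights per genotype (272) and 0 without an intensity trend (287). Leaving out each KO library in turn gave 0 to 0 called genes (156 to 638 at an unadjusted p under 0.05), with the lone library of a day assumed to vary like the others. Leave-one-out fits of WT and OE were chosen after seeing the data: WT gave 0 to 3 called genes, with 3 without day 25 replicate 2, and OE gave 0 to 0. With the replicate number as a block, KO had 17 called genes (4 higher, 13 lower, 1 shared with the main count) and WT had 3. The block changed no other call. The labels do not tell whether a replicate number marks the same clone or culture at both days, and this was not tested. Replicate differences of the 2 days in KO had a Pearson's r of 0.06 over all genes. Of the 456 genes 2-fold apart at both days, 272 differed in the same direction and 184 in opposite directions. Neither interaction had a called gene under any alternative.

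At 4-fold in place of 2-fold, 159 genes differed between the KO replicates at day 25 and 243 at day 30. Over the 24 leading genes by separation, 342 of 351 alternative values kept direction and side of the threshold, 7 lost the call (all HELLPAR), 2 gained it under the block (LINC00504 and C12orf50) and 0 reversed. Since these genes were chosen by separation, leaving out a library could not reverse a direction. All but HELLPAR also started above the threshold, so these counts do not measure robustness. List medians moved by more than the spread of their libraries in 31 of 170 alternatives. The split of the histone list into replicative genes alone, chosen after seeing the data, gave a day change of 0.24 beside 0.23. The precision is limited by 2 libraries per day.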
